A study of Mus musculus with 6 samples.

Results

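The genes described here fold, check and export proteins in the endoplasmic reticulum (ER), or sense and relieve the stress of unfolded protein there. The list holds 37 genes, of 18032 genes measured in all. Members were taken as probe sets annotated to these genes, older symbols included, on either of the Affymetrix mouse chips used, MOE430A and MOE430B. Of the 37, 35 had a probe set annotated to that gene alone. Sec61g was covered only by a probe set shared with other genes, and Fkbp10 was not analysed here. The 35 genes had 83 probe sets, 71 on MOE430A and 12 on MOE430B.

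The RNA came from myospheres, floating clusters formed by cells of the hind-leg muscles of Balb/c males, after a sort enriched for the surface antigen Sca1. The labels give 4 days of growth in NeuroCult, a medium for neural stem cells, with LIF, B27, EGF and an additive written bf6f, and RNA taken at passage 1. Each chip had arrays numbered replicate 1, 2 and 3, 6 arrays in all, and no other condition was measured. Nothing in the labels says that the replicates are separate cultures or animals, or that arrays of the same number share an RNA extract, so the spread below may be technical.

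The ER receives secreted and membrane proteins through a channel, folds them with chaperones, disulfide isomerases and prolyl isomerases, and passes them on in coated vesicles. Escaped chaperones return from the Golgi by a receptor that reads their last residues. When folding falls behind, the sensors IRE1, PERK and ATF6 start the unfolded protein response, which slows translation and induces chaperone and degradation genes. Fibroblasts that secrete collagen rely on this machinery, and some of its members act mainly on collagen.

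Signals are MAS5 intensities on a linear scale. As a background, each array was given a limit, the 95th percentile of probe sets for genes of tissues other than muscle, such as odorant receptors and keratin-associated proteins. The limit averaged 808 on MOE430A and 2922 on MOE430B. A probe set passed, or was above the limit, if all 3 arrays of that chip read higher than their limits, and a gene if 1 or more of its sets passed. The trimmed mean signal was 1500 to 1501 on every array. Control sets for Gapdh read 13.8 times (MOE430A) and 15.4 times (MOE430B) higher at the 3' than at the 5' end of the transcript, and those for actin 10.4 and 11.1 times. The part of this gradient in any value below was not tested. With 3 arrays per chip, their number limits the precision. Chips were scaled separately and probe sets differ in affinity, so each level is set against its own array's limit alone.

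All 35 measured members were above the limit, where 36.4% of all measured genes were. A gene with many probe sets has more chances to pass, so the share was also read by number of probe sets. Members with 1 probe set were above in 12 of 12 cases, against 22.3% of all genes with 1. Members with 2 were above in 9 of 9, against 42.6%, and members with 3 or more in 14 of 14, against 59.1%. Counted by probe set, 54 of 71 (76.1%) passed on MOE430A, against 35.6% of all single-gene probe sets there, and 6 of 12 on MOE430B, against 13.6%. The best probe set of each member lay at a median of 7.86 times its limit, against 0.783 times over all measured genes. It reached 10 times the limit or more for 15 of 35 members and 4.77% of all genes. Moving the limit to the 99th percentile left 33 of 35 members above, against 27.3% of all genes, and the 90th percentile 35 of 35, against 42.1%. With receptor families alone as reference 34 of 35 passed, against 34.5%, and with the array median as limit 35 of 35, against 53.9%. With 1 probe set per gene 34 of 35 passed, against 34.7%, and on MOE430A alone 34 of 35, against 42.7%. Probe sets whose IDs carry the letters x, s or a before the final _at can match several transcripts. For the letter a these are transcripts of the same gene. Leaving out all such sets, 27 members were measured and 23 passed, against 30.7%. Hyou1, Xbp1, Herpud1 and Ssr4 were the 4 that no longer did. These counts describe 1 kind of culture. In bulk RNA, fewer cells of a type and less RNA per cell cannot be told apart.

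**Figure D1:**
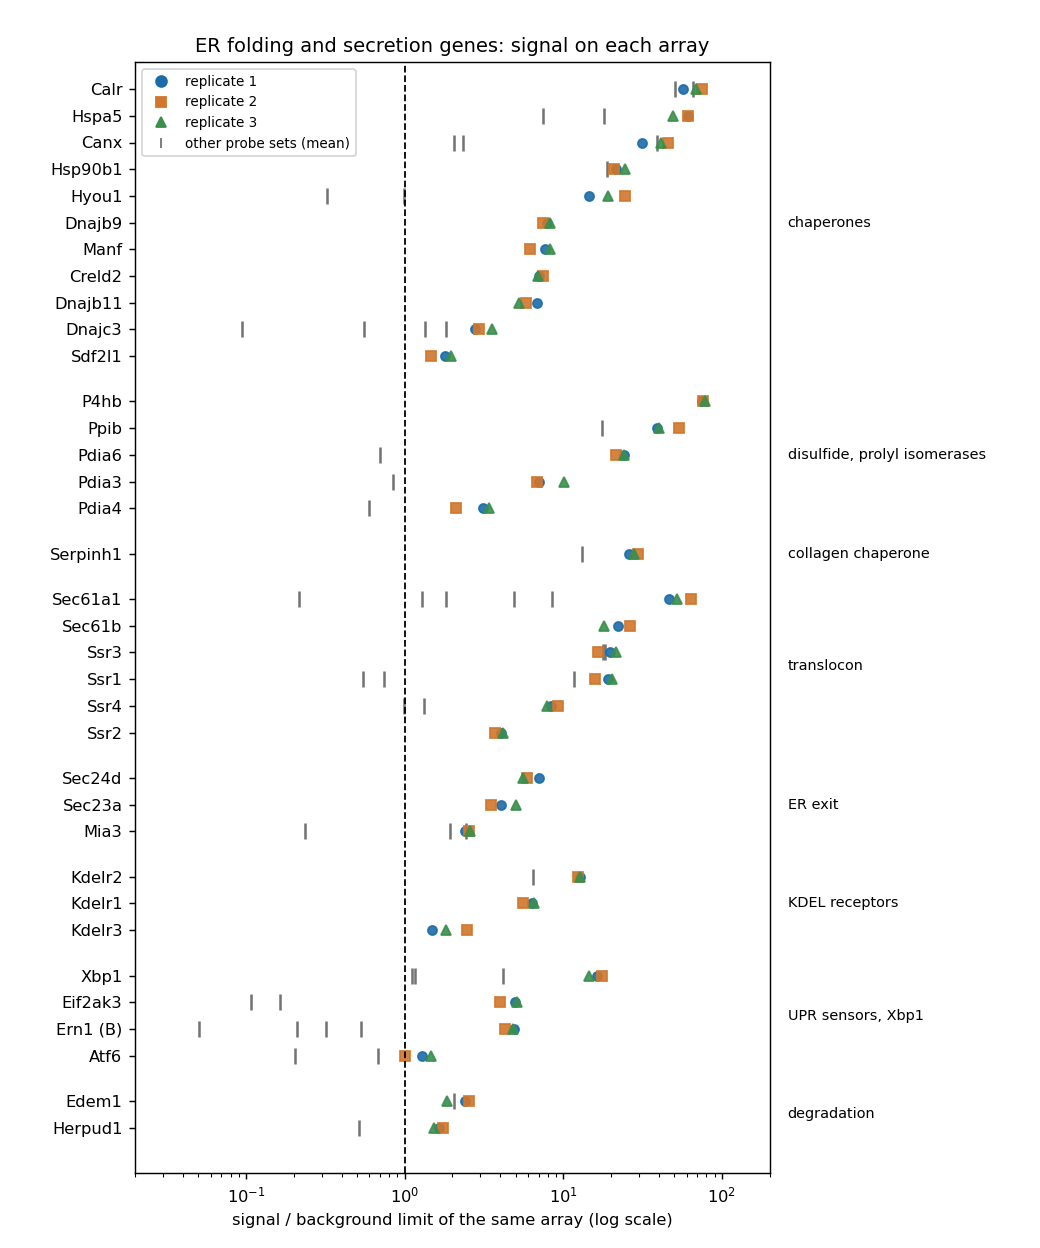
Signal of each member divided by the background limit of the same array, on a log scale, with genes grouped by role. Coloured symbols are the 3 arrays for the probe set with the highest mean relative to its limit, on MOE430A unless marked (B), and grey ticks are the means of the gene's other probe sets. P4hb and Calr lie farthest right, at 76.4 and 66.8 times the limit, and Atf6 lies nearest the dashed line at 1, at 1.26 times.

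Stress induction of many of these genes is known to run through short promoter elements. The ER stress response element ERSE, CCAAT and CCACG with 9 bases between them, is bound by ATF6 together with NF-Y. The shorter ERSE-II is ATTGG and CCACG with 1 base between them, and the UPR element TGACGTGG is bound by XBP1. ERSE contains CCAAT and CCACG, and ERSE-II contains CCACG and the reverse complement of CCAAT. Both strands were searched from 250 bases before to 50 after each RefSeq gene start (build GRCm38.p6), a window available for 30 of the 37 members. ERSE was found for 7 of 30 members, against 3 of 87 promoters of other genes of the pathway (3.45%; Derl3, Ero1b and Syvn1) and 0.119% of all 32851 promoters in the table. ERSE-II was found for 2 of 30 members, against 0 of 87 promoters of other pathway genes and 0.0365% of all promoters. The UPR element was found for 3 of 30 members, against 6 of 87 promoters of other pathway genes (6.9%) and 0.676% of all promoters. Its higher share is therefore not particular to the members within the pathway. CCAAT alone was in 70.0% of member promoters, against 52.9% for other pathway genes, 42.0% for measured genes and 37.4% of all promoters. CCACG alone was in 73.3% of member promoters, against 69.0%, 45.9% and 32.8% in the same order. Among measured genes, ERSE was in 10 of 5358 promoters of genes above the limit (0.187%) and 10 of 9010 not above it (0.111%). The 7 members with ERSE are all among those above, so these shares do not describe genes outside the list. A match describes the letters and is not shown to be a bound site. Because these elements are already known from many of these genes, the higher shares among members are not an independent result.

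ERSE was found for 6 of the 11 chaperone genes and for the isomerase Pdia6, and these sites are shown because this element is the best known of the 3. Each is written 5′ to 3′ on the strand that reads CCAAT first, with the fixed letters in capitals and 10 flanking bases on each side. Positions count back from the gene start at -1. Hsp90b1 has 2 sites, on opposite strands, and the sites of Calr and Creld2 run against their genes.
Hspa5, chr2:34772015-34772053 (+), match from -65: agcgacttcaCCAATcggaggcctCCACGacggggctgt
Hsp90b1, chr10:86705628-86705666 (-), match from -212: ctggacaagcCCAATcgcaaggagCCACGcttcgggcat
Hsp90b1, chr10:86705523-86705561 (+), match from -107: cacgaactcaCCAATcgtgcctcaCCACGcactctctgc
Calr, chr8:84847065-84847103 (+), match from -162: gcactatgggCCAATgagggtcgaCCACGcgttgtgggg
Canx, chr11:50325790-50325828 (-), match from -145: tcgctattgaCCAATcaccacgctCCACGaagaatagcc
Pdia6, chr12:17266481-17266519 (+), match from -98: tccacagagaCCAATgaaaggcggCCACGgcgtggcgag
Dnajc3, chr14:118937817-118937855 (+), match from -105: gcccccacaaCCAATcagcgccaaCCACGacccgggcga
Creld2, chr15:88819510-88819548 (-), match from -126: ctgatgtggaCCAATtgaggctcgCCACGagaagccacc

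The ERSE-II sites lie at -52 of Herpud1 and at 8 bases after the start of Dnajb11, shown with 9 flanking bases. The UPR element lies in the windows of 3 genes of vesicle traffic, Sec24d, Sec23a and Kdelr3, the last on the opposite strand. The window of Sec24d is set on a start inside the annotated gene.
Herpud1, chr8:94386368-94386396 (+): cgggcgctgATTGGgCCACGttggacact
Dnajb11, chr16:22857843-22857871 (+): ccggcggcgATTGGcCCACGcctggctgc
Sec24d, chr3:123267460-123267487 (+): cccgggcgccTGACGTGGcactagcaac
Sec23a, chr12:59011994-59012021 (-): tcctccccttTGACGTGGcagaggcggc
Kdelr3, chr15:79516368-79516395 (-): ggccgcgcggTGACGTGGcggggcggcc

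The 150 bases before the start of Hspa5 (chr2:34771940-34772089, plus strand) show the site in context, with its fixed letters in capitals.
Hspa5 upstream: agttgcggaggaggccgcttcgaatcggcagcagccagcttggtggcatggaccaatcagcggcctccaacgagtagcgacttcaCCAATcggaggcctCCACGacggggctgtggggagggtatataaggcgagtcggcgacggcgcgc

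**Figure D2:**
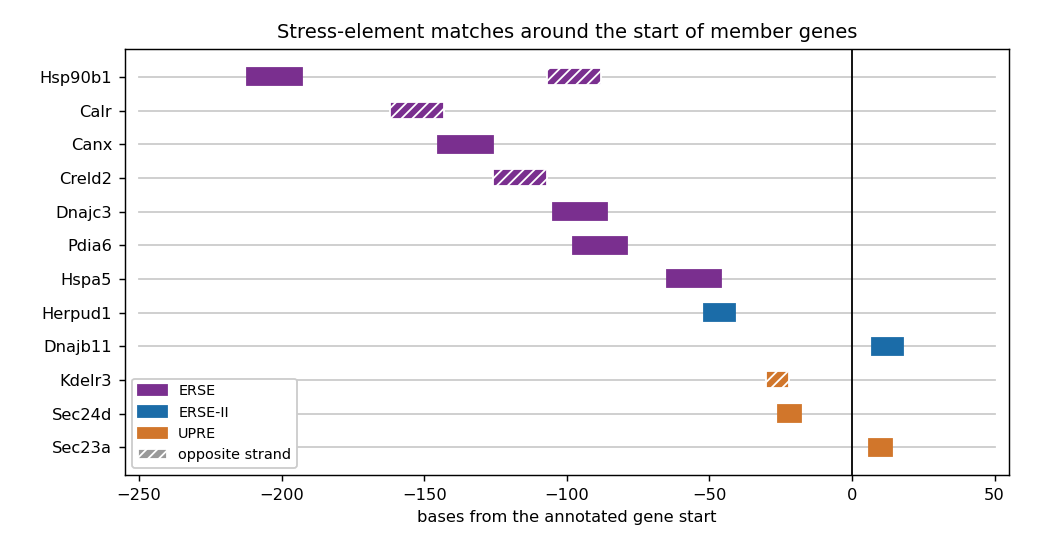
Position of each exact match in bases from the annotated gene start (vertical line), for the 12 members with a match. Solid bars lie on the gene's strand and hatched bars on the opposite one. The ERSE matches begin between -212 and -65, whereas the 3 UPR element matches lie within 30 bases of the start. For Sec24d the vertical line is a start inside the annotated gene.

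Among the chaperones, 11 of 11 were above the limit. Hspa5 (BiP), the Hsp70 of the ER and the switch that holds the stress sensors inactive, read 50015, 48036 and 40562 in replicates 1, 2 and 3 on MOE430A. These average 46204 ± 4986 (SD, n = 3), 57.2 times the limit. The Hspa5 set of highest mean, on MOE430B, read 56227, 54732 and 47510.3, or 52823 ± 4661 and 18.1 times that chip's limit. Replicate 3 was lowest on both. A further Hspa5 set on MOE430A averaged 6018 ± 540.5 and was highest in replicate 3.

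Hsp90b1 (GRP94), the Hsp90 of the ER, read 17498, 16482 and 20149, or 18043 ± 1893 (SD, n = 3), and its second set gave 15165 ± 706. Hyou1, a large Hsp70-like protein that recharges BiP with nucleotide, read 11924, 19236.5 and 15614 by an _s_at set, a type whose probes can match several transcripts. Its other sets gave 801 ± 508 (above the limit on 2 of 3 arrays) and 261 ± 79.5 (above on none). Hyou1 is therefore called above the limit by 1 probe set of 3.

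Calreticulin (Calr) and calnexin (Canx) hold newly glycosylated proteins by their sugar chains. Calr read 46847, 58443 and 56596, or 53962 ± 6230.3 (SD, n = 3), and each of its 3 probe sets was above the limit. Canx read 25839, 35906 and 34088 on MOE430A by its _s_at set, or 31944 ± 5365. The other Canx sets on that chip averaged 1877 ± 246 and 1652 ± 655, or 2.32 and 2.04 times the limit. Both lectin chaperones were thus above it by every probe set they have.

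The J-domain proteins drive ATP use by BiP, and 3 of 3 were above the limit. Dnajb9 averaged 6349 ± 443 and Dnajb11 4832 ± 657 (SD, n = 3), 7.86 and 5.98 times the limit. Dnajc3, which in addition restrains PERK, averaged 2489 ± 357 by the best of 5 probe sets, of which 3 were above. Sdf2l1, a partner of Dnajb11, read 1467, 1145 and 1608, 1.74 times the limit on average. The stress-inducible Manf averaged 5957 ± 984 and Creld2 5767 ± 95.7. Creld2 had the smallest spread of any member probe set above the limit, a coefficient of variation (CV) of 1.66%.

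The disulfide and prolyl isomerases were above the limit in 5 of 5 measured cases. P4hb, a disulfide isomerase that is also the beta subunit of collagen prolyl 4-hydroxylase, read 61573, 59629 and 64024, or 61742 ± 2202 (SD, n = 3). This _a_at set is its only one, so P4hb has no second probe set to compare. Ppib (cyclophilin B), a prolyl isomerase that acts on collagen chains, read 31895, 41923 and 32911 by an _x_at set, and 14263 ± 1147 by its other set. Pdia6 averaged 18777 ± 1626, and Pdia3, the isomerase that works with calnexin and calreticulin, 6452 ± 1588, highest in replicate 3 at 8275. The second Pdia6 set averaged 569 ± 142, under the limit on every array. A second Pdia3 set, on MOE430B, averaged 2468 ± 1115 and passed on 2 of 3 arrays. Pdia4 read 2545, 1649.7 and 2798, and its second probe set averaged 478 ± 51.9, under the limit on every array.

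Serpinh1 (HSP47), a chaperone that binds procollagen in the ER, read 21285, 23172 and 22809. This is 22422 ± 1001 (SD, n = 3), 27.8 times the limit, and its other set gave 10578 ± 1418. Its best-known cargo was measured on the same chip, with Col1a2 at 62928 ± 4545 and Col3a1 at 61465 ± 3433. Col1a1 varied more, at 2245, 6615 and 7014, and its other set was under the limit on every array, at 194 ± 194. Second sets on that chip gave Col1a2 7397 ± 205 and Col3a1 4048 ± 707, both above the limit. Of 10 fibroblast matrix genes 10 were above the limit, decorin (Dcn) among them at 148494 ± 7522. With 1 condition measured, no relation between cargo and chaperone levels could be tested.

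At the translocon, 6 of 6 measured members were above the limit. Sec61a1, the pore of the channel, read 37742, 50137 and 42973 by its highest set, or 43617 ± 6222 (SD, n = 3). Of its 6 probe sets 5 were above the limit, and an _a_at set was under it on every array, at 173 ± 213. The small subunit Sec61b read 18050.3, 20609 and 14896. Among the subunits of the translocon-associated protein complex, Ssr1 averaged 14939 ± 2146, Ssr4 6868 ± 348 and Ssr2 3217 ± 272 on MOE430A. The Ssr3 set of highest mean gave 53747 ± 15068 on MOE430B, and the same set 15576.5 ± 2321 on MOE430A. Ssr4 was above by 1 of 3 sets, and its other sets passed on 1 of 3 arrays each. Ssr1 was above by 2 of 4 sets.

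The coat and export genes were above the limit in 3 of 3 cases. Sec24d, which selects cargo for the COPII coat, read 5768, 4644 and 4580.1, and its coat partner Sec23a 3294, 2746 and 4147. Mia3 (TANGO1), which loads collagen into export carriers, averaged 2024 ± 76.3 on MOE430A and 7143 ± 750.2 on MOE430B (SD, n = 3). These are 2.51 and 2.44 times the limits of those chips, by different probe sets. Another MOE430A set averaged 1556 ± 161 and was above the limit, and another MOE430B set was under it at 687 ± 354.

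KDEL receptors, which return escaped chaperones from the Golgi, were above in 3 of 3 cases. Kdelr2 read 10406, 9680.05 and 10519.8, or 10202 ± 456 (SD, n = 3), and its second set averaged 5195 ± 516. Kdelr1 averaged 4986 ± 517. Kdelr3 read 1222, 1932 and 1504, only 1.49 times the limit on its lowest array.

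The 3 sensors and Xbp1 were above the limit in 4 of 4 cases, the sensors by 1 probe set each. Xbp1, the factor made active when IRE1 splices its RNA, read 13351, 13710.5 and 11885 by its highest set, or 12982 ± 967 (SD, n = 3). Its next set averaged 3369 ± 1120.3 and the remaining 2 only 944 ± 196 and 904 ± 49.7. The arrays do not tell spliced from unspliced Xbp1. Eif2ak3 (PERK) read 4057, 3148 and 4207 by 1 of 3 sets, with the others under the limit at 132 ± 138 and 86.4 ± 60.5. Ern1 (IRE1 alpha) was above the limit on MOE430B alone, at 15968.5, 12652 and 12349. The other Ern1 set on MOE430B was under the limit on every array, at 938 ± 282. Its 3 MOE430A sets were also under their limit on every array, the highest at 431 ± 164. Atf6 read 1057, 792 and 1201 on MOE430A, 1.01 times the limit on its lowest array. On MOE430B another Atf6 set, the one of highest mean, gave 2137, 2463 and 1333, under its limit throughout.

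Of the genes for degradation of misfolded protein, Edem1, which marks glycoproteins for removal, averaged 1823 ± 263 and 1655 ± 211 by its 2 sets (SD, n = 3). Herpud1, a scaffold of the ER ubiquitin ligase, read 1353, 1367 and 1251 by an _a_at set. Its second set read 181, 767 and 297, under the limit on every array. By their best sets Edem1 lay at 2.26 and Herpud1 at 1.64 times the limit.

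Of 83 member probe sets 23 were not above the limit, and 14 of 35 members had at least 1 such set. Across 20 members with several MOE430A sets, the median ratio of highest to lowest set was 8.12, against 4.54 over all 4951 such genes. The ratio was over 10 for 9 of these members (45.0%), against 28.9%. Sets with x, s or a before the final _at alone carried the call of 12 members. Those with the letter a match transcripts of the same gene.

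The rest of the pathway was read from lists of other genes with the same roles. Together 86 of 104 measured genes were above the limit (82.7%), against 36.4% of all genes. In N-glycosylation and the calnexin cycle 14 of 14 were above, with the oligosaccharyltransferase subunits Rpn1 at 27590.0 ± 1388, Rpn2 at 4232 ± 665 and Ddost at 4824 ± 543 (SD, n = 3). In signal recognition and signal peptide removal 15 of 16 were above, with Srp9 at 4857 ± 176, Srp14 at 16487 ± 975 and Srp19 at 6608 ± 522. The exception was Sec61a2, a second form of the channel pore, at 785 ± 221.

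Of other coat genes 16 of 19 were above. The GTPases Sar1a and Sar1b gave 77549.8 ± 20769.6 on MOE430B and 4340 ± 230.4 on MOE430A, and Sec13 4991 ± 265. Sec24a, Sec24b and Mia2, the last a relative of Mia3, were not above, at 1897 ± 515 on MOE430B, 293 ± 213 and 222 ± 139. Of other folding enzymes 19 of 23 were above, among them Txndc5 at 8314 ± 823. Pdia5, Txndc11, Fkbp11 and the pancreatic isomerase Pdia2 were not, Pdia2 at 197 ± 90.6 on MOE430B and Pdia5 at 1123 ± 303, above on 2 of 3 arrays. Txndc11 gave 979.8 ± 156 on MOE430B and Fkbp11 954 ± 219.

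Of other degradation genes 11 of 14 were above, with Sel1l and its ligase partner Syvn1 at 17519.5 ± 988 and 6293 ± 1655 on MOE430B and Derl1 at 18579 ± 2301. Derl3, Edem2 and Man1b1 were not above, at 465 ± 159, 1409.8 ± 428 on MOE430B and 154 ± 29.2. Of other stress factors 11 of 18 were above, the lowest share of the 6 lists. Creb3 gave 6124 ± 396 and Atf4, the factor translated when PERK acts, 6861 ± 449. Not above were Atf6b at 579 ± 143, Creb3l1 at 919 ± 197, the pro-death factor Ddit3 (CHOP) at 1086 ± 379 and its target Trib3 at 492 ± 160.3. Ern2, the gut form of IRE1, read 49.9 ± 14.3, and Eif2a and Nfyb were also not above. Ddit3 exceeded the limit on 2 of 3 arrays.

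**Figure D3:**
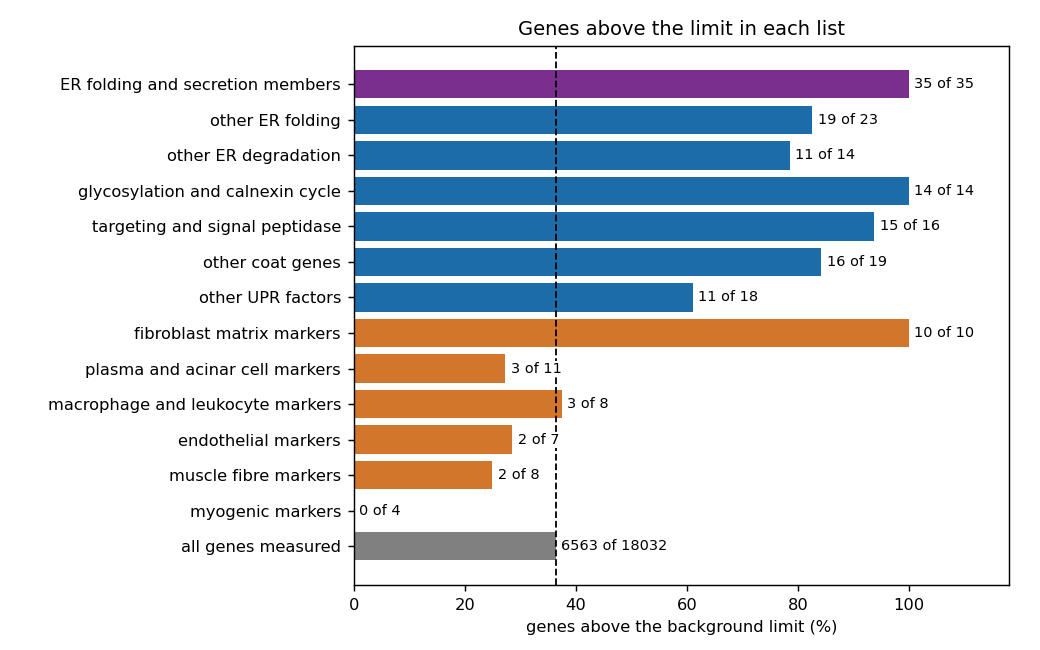
Share of measured genes above the background limit in each list, in percent, with counts at the bars. The ER folding and secretion members are purple, other lists of the pathway blue, cell type markers orange and all measured genes grey, at 36.4% (dashed line). The members, the glycosylation list and the fibroblast matrix markers reach 100%. The muscle, endothelial and plasma or acinar cell markers lie below the line, and the macrophage and leukocyte markers, at 37.5%, just above it.

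Markers of other cells that could contribute ER transcripts were read the same way, beside the 36.4% of all genes above the limit. Of markers of plasma and acinar cells, the professional secretory cells, 3 of 11 were above, namely Sdc1 at 5623 ± 1821, Mzb1 at 3688 ± 449 on MOE430B and Cela1 at 1139.6 ± 130.4 (SD, n = 3). Sdc1 is made by many other cells. Jchain gave 526 ± 381, Prdm1 555 ± 55.1, Agr2 66.1 ± 55.8 and Cpa1 36.9 ± 6.33, none above the limit. Macrophage and leukocyte markers were above for 3 of 8, Csf1r at 2925 ± 555.0, Lyz2 at 2104 ± 641 and Adgre1 at 1431 ± 145. Ptprc gave 628 ± 219.7, Cd68 792 ± 68.7, Tyrobp 1018 ± 313, Itgam 87.5 ± 93.3 and Fcgr3 692 ± 349.6, none above. Endothelial markers were above for 2 of 7, Kdr at 1841 ± 326 and Cldn5 at 1297 ± 268. Those not above were Pecam1 at 164 ± 81.3, Cdh5 at 908 ± 199.6, Tek at 469 ± 91.1, Emcn at 481 ± 109 and Vwf at 26.8 ± 16.2. Muscle fibre markers were above for 2 of 8, Atp2a1 at 1356 ± 180 and Ttn by a MOE430A set at 968 ± 151. Acta1 gave 819 ± 238, Ckm 1802 ± 134 on MOE430B and Myh3 447 ± 159.9, none above. The myogenic factors were above for 0 of 4, with Pax7 at 375 ± 239 on MOE430B, Myf5 at 76.8 ± 32.4, Myod1 at 914 ± 267.3 and Myog at 1177 ± 393. Myod1 and Myog, like Cd68, Tyrobp and Cdh5, exceeded the limit on 2 of 3 arrays, so they lie near it. The part of these other cells in the members' signals was not tested.

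Whether the replicates differed was tested with limma across 613 genes whose signal passed the mean limit of MOE430A and of MOE430B, with 1 value per chip and replicate. The fit takes arrays of the same number as 1 replicate, which the labels do not state. Deviations of same-numbered arrays from their chip's mean correlated at only 0.044, 0.058 and 0.119 over these genes, so its values describe arrays of like number and are not shown to compare cultures. At an adjusted p under 0.05 it called 7 of 613 genes (1.14%), of which 0 were among the 4 members tested. Without replicate 2 it called 0 (40 at an unadjusted p under 0.05), and without replicate 3 it called 3. Ssr3 differed most of these 4, by 0.48 ± 0.19 (SE) on the log2 scale between replicate 1 and replicate 2 (limma, adjusted p = 0.39, unadjusted p = 0.0324). It read 16135, 13027 and 17568 on MOE430A and 69233, 39135 and 52872.5 on MOE430B, so that replicate 2 was lowest on both chips. Canx, Hspa5 and Mia3 differed by 0.07 ± 0.20, 0.13 ± 0.19 and 0.19 ± 0.27 between their highest and lowest replicates (limma, adjusted p = 0.98, 0.964 and 0.964). The other members did not pass the mean limit on both chips; with no such filter 4 more, Atf6, Ern1, Pdia3 and Ssr1, were tested, and limma called none of them (adjusted p = 0.942 to 0.962, unadjusted p = 0.058 to 0.694). A member on MOE430A alone has 1 array per replicate.

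By description, the 54 member probe sets above the limit on MOE430A had a median CV of 13.4%, against 12.96% for all 7242 probe sets above it. On MOE430B these were 16.1% for 6 member sets and 15.6% for 1971. On MOE430A replicate 2 was lowest for 25 of 54 member sets (against 39.4% of all sets above), and replicate 3 highest for 24 of 54 (against 33.6%). On MOE430B replicate 1 was highest for 6 of 6 member sets, which come from 5 genes, against 56.3% of all sets above. The MOE430B array of replicate 1 was from another chip lot than those of replicates 2 and 3, so lot and replicate cannot be told apart there.

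**Figure D4:**
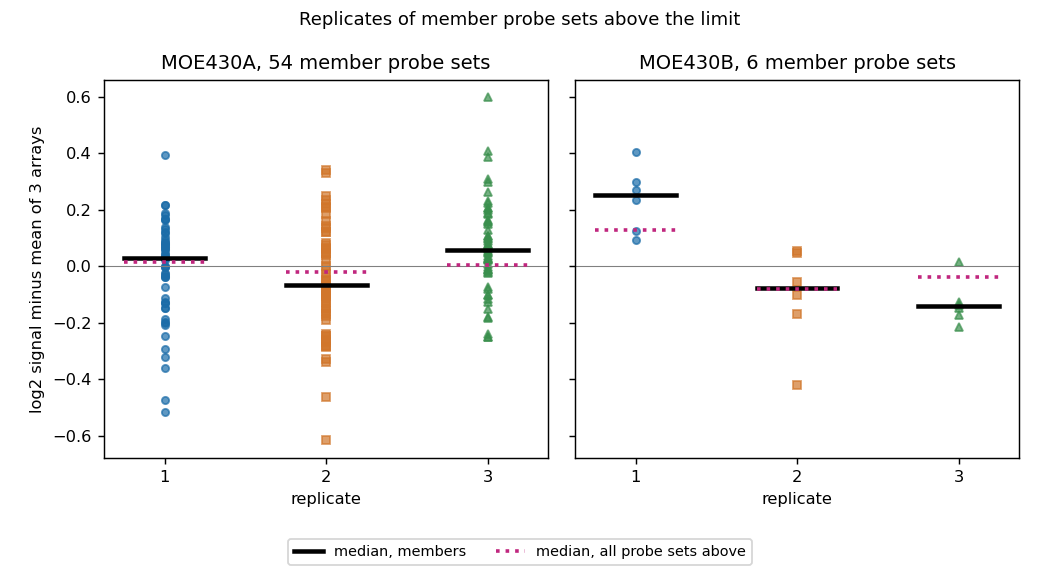
Log2 signal of each member probe set above the limit minus its mean over the 3 arrays, by replicate, for MOE430A (54 probe sets) and MOE430B (6 probe sets). Black bars are medians over the members and dotted bars medians over all probe sets above the limit. Medians of the members lie at 0.03, -0.06 and 0.06 on MOE430A, and at 0.25, -0.08 and -0.14 on MOE430B.

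Among the 100 probe sets present on both chips, 2 belonged to members. The Canx set read 135384, 108079 and 96713 on MOE430B, against 25839, 35906 and 34088 on MOE430A. This is 1.83 ± 0.21 (SE) higher on the log2 scale (limma, adjusted p = 1.02e-05). The Ssr3 set was 1.76 ± 0.24 higher on MOE430B (limma, adjusted p = 2.93e-05). All 100 sets were called (100%), with a median difference of 1.86, so both members moved with the chip as a whole. Relative to their limits the chips gave Canx 38.8 times on MOE430B and 39.5 times on MOE430A, and Ssr3 18.4 and 19.3 times.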

How the data were processed

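The deposited values are signal intensity. The submitters' processing notes name MAS5; its version is not given in the sources used here. The trimmed mean (2% from each end) was the same on all arrays in the deposited tables. The tables hold 22690 probe sets (MOE430A) and 22575 (MOE430B), of which 20393 and 14674 have 1 gene symbol, 691 and 245 several, and 1606 and 7656 none in the given annotation. Entrez numbers gave current symbols from a RefSeq table (GRCm38.p6), which held 20364 and 14499, and only these were used. The limit came from 152 reference probe sets on MOE430A and 43 on MOE430B, of which 2.63% and 4.65% themselves passed. Levels are mean ± SD over 3 arrays of the probe set with the highest mean signal, unless another is named. That choice, also used for 1 probe set per gene, compares raw signal across chips. For Atf6, Pax7 and Ckm it takes an MOE430B set, although an MOE430A set lay higher relative to its limit. All members are named; of each further list the first 3 genes and those not above the limit where 5 or fewer; others were chosen after their values were seen. The members and lists were chosen with earlier results of these data known. Replicates (chip as covariate, intensity trend) and chips were tested on log2 signal with limma 3.58.1 (R 4.3.3), Benjamini-Hochberg adjusted over all features, after testing on simulated data. Alternatives changed the limit, the normalization, the probe sets, the chip and the replicates used. Python 3.11.15, numpy 2.4.6, pandas 2.3.3 and matplotlib 3.10.9 did the rest. Arrays carry no depth, and their number limits precision.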

Additional observations from a re-analysis of the deposited data

Results flagged for a closer look

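Sec61g, the smallest subunit of the Sec61 channel, had no probe set of its own, but an _x_at set annotated to Sec61g and 2 other genes gave signal outside the comparisons above. It read 5003, 4513 and 4636 in replicates 1, 2 and 3 on MOE430A, or 4717 ± 255 (SD, n = 3), and its lowest array was 5.64 times the limit. The signal cannot be assigned to 1 of the 3 genes. A set annotated to Sec61b and another gene read 713, 307 and 393, under the limit. Groups of 3 arrays are too small for a check of outlying samples.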

How the results depend on the processing

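The count of members above the limit ranged over 33 to 35 of 35 with another limit, normalization or chip, or with 1 probe set per gene. It was 35 of 35 without replicate 1, 2 or 3. Leaving out the sets with x, s or a before the final _at, given below, changed it most, to 23 of 27. Atf6 and Kdelr3 were lost with the 99th percentile as limit (33 of 35, against 27.3% of all genes). Atf6 was also lost with receptor families alone as reference and with 1 probe set per gene, and Ern1 with MOE430A alone. Without probe sets that carry x, s or a before the final _at, 27 members were measured and 23 were above, against 30.7% of all genes. Hyou1, Xbp1, Herpud1 and Ssr4 were lost. No member tested was called between replicates under any alternative run, while limma called 4 of 613 genes with array median centring (41 unadjusted), 5 with log2 of signal plus 100, 0 of 614 with quantile normalization (36 unadjusted), 0 with no filter on low signal (92 unadjusted of 3805) and 0 with no intensity trend (55 unadjusted). Leaving out a replicate gave 0 to 7 called, with 0 of 613 without replicate 2 (40 unadjusted) and 3 without replicate 3. The cause was not tested. With each array centred on the shared probe sets 0 of 100 differed between chips (10 unadjusted), and Canx and Ssr3 turned to -0.091 and -0.16 on the log2 scale, since centring removes the common shift of 1.86. Deviations of same-numbered arrays correlated at -0.015, 0.437 and 0.0996 over the shared probe sets, so the numbers were not taken to pair the chips, and the test between replicates, which uses them, rests on an assumption these values do not bear out. The replicate block gave 100 of 100 calls between chips, and leaving out a replicate gave 98 to 100.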
